A study of Mus musculus with 10 samples.

Results

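Brains of newborn XX mice from 2 crosses were compared: the 3 arrays titled XX_Paf (replicates 1, 2 and 3) and the 2 arrays titled XX_InX (1 and 19), chosen by their labels and together 5 of the 10 arrays of the series. Each array (Affymetrix MG-U74Av2) measured RNA of whole brain at postnatal day 0. XX_Paf animals are females with 40 chromosomes whose cross is written C57BL/6J x C3H/Paf, and XX_InX animals are females with 40 chromosomes whose cross is written In(X)/C3H x C57BL/6J. The other 5 arrays hold XO animals with 39 chromosomes from the same crosses, XmO (3 arrays, the Paf cross) and XpO (2 arrays, the In(X) cross), and serve here to estimate the spread between arrays and as a second comparison of the crosses that shares no array with the first. The labels do not state which parent is written first, whether the XX females carry the Paf mutation or the inversion, or whether an array holds 1 brain or a pool. Strain of each parent, origin of the X chromosomes, mother and litter all go with the cross and cannot be told apart in these groups.

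C57BL/6J and C3H are inbred laboratory strains. Paf (patchy fur) is an X-linked mutation whose male carriers sire XO daughters that lack the paternal X, and In(X) is an inversion of the X chromosome whose female carriers give XO daughters that lack the maternal X, so XX daughters are the usual controls in either cross. In an XX brain each cell silences 1 of its X chromosomes through the noncoding RNA Xist, a minority of X-linked genes escape that silencing, and imprinted genes are read mainly from the allele of one parent. The newborn brain is a mixture of dividing progenitors, young neurons that extend axons and form their first synapses, glia, vessels with the blood inside them, and attached meninges and choroid plexus. In such bulk tissue fewer cells of a type and less RNA per cell cannot be told apart.

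Expression is given as probe set intensity on a linear scale, and differences as the log2 of XX_Paf over XX_InX, so positive values are higher in XX_Paf. Each value written as mean ± SD is over 3 XX_Paf and 2 XX_InX arrays. All 10 arrays had been scaled to a trimmed mean of 500.3. Across probe sets the XX_Paf arrays correlated with each other at 0.964 to 0.969, the XX_InX pair at 0.955, and arrays of opposite crosses at 0.931 to 0.961 (Pearson's r on the log2 scale, given as a description). Xist checked the karyotype labels, with 4082, 3742 and 3300.1 on the XX_Paf arrays and 1673 and 2671 on the XX_InX arrays, and 21.3 to 49.9 on the 5 XO arrays. The 5′ to 3′ ratio of the pyruvate carboxylase probe sets, a sign of RNA integrity, was 0.384 to 0.559 in XX_Paf and 0.222 to 0.352 in XX_InX, and the same ratio for Actb was 0.933 to 0.979 and 0.876 to 0.901, so both ratios were lower in XX_InX with no overlap. The ratio for Gapdh overlapped (1.30 to 1.38 against 1.22 to 1.36), and that for the transferrin receptor, at 0.269 to 0.289 against 0.288 to 0.319, overlapped with the higher value in XX_InX. XX_InX 19 also stood apart in the 5′ probe set of 18S ribosomal RNA, at 1099.9 against 339.7 to 431.9 on the other 4 XX arrays. The part of RNA quality in the differences below was not tested. For genes near the limit of detection, the brightest of 11 probe sets for Y-linked genes, absent from XX and XO genomes alike, was taken as the background of each array.

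Of 8695 probe sets tested with limma, 7 differed between the XX groups at an adjusted p under 0.05 (0.0805% of those tested), 6 of them higher (0.069%) and 1 lower (0.0115%) in XX_Paf. The 7 probe sets read the heme enzyme gene Hccs, the alpha globin gene Hba-a1, the ABC protein gene Abcf2, the gasdermin gene Gsdme, the nuclear exporter Xpo1, the heterochromatin protein gene Cbx1 and, in the lower direction, the adaptor gene Cmip. Without adjustment 1199 probe sets (13.8%) had a p under 0.05, 643 (7.4%) higher and 556 (6.39%) lower in XX_Paf. Between the XO groups of the same crosses, with the same numbers of arrays and the same fit, 1 probe set passed (0.0115%) and 420 (4.83%) had an unadjusted p under 0.05. All 3 XX_Paf arrays lay above both XX_InX arrays for 1528 probe sets (17.6%) and below both for 1699 (19.5%), against 747 (8.59%) and 768 (8.83%) for XmO against XpO.

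Cmip encodes an adaptor protein that induces the transcription factor c-Maf, and its dimmer probe set (chromosome 8) gave the smallest p-value. Its intensity was 658, 720.2 and 762 on the XX_Paf arrays and 2328 and 2290.5 on the XX_InX arrays. In XO brains it was 719.5, 896 and 746 on the XmO arrays and 2103 and 2526 on the XpO arrays. Every array of the Paf cross, XX or XO, lay at 658 to 896 and every array of the In(X) cross at 2103 to 2526. The XX difference was -1.70 (SE 0.14, limma adjusted p = 2.83e-04), 3.24-fold lower in XX_Paf, and the XO difference was -1.56. A second and brighter probe set of Cmip, at 7015 in XX_Paf and 8218 in XX_InX, had an XX difference of -0.23, so the probe sets of this gene did not show the same size of change.

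Hccs lies on the X chromosome and encodes the mitochondrial enzyme that attaches heme to cytochrome c. Its brighter probe set read 1363, 1001 and 1237 on the XX_Paf arrays and 316 and 391 on the XX_InX arrays, and 387, 385 and 350.5 on the XmO arrays and 415 and 441 on the XpO arrays. The 3 XX_Paf arrays thus stood alone, 3.39-fold above XX_InX (1.76, SE 0.17, limma adjusted p = 7.61e-04), while all other groups lay between 316 and 441. The XO difference was -0.19, and the XX difference exceeded it by 1.95 (SE 0.24, limma adjusted p = 0.0219 over all probe sets). A dimmer probe set of Hccs had an XX difference of 0.41. Cmip and Hccs were the probe sets that remained past the threshold in all 14 alternative settings, each left-out XX array included.

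**Figure D1:**
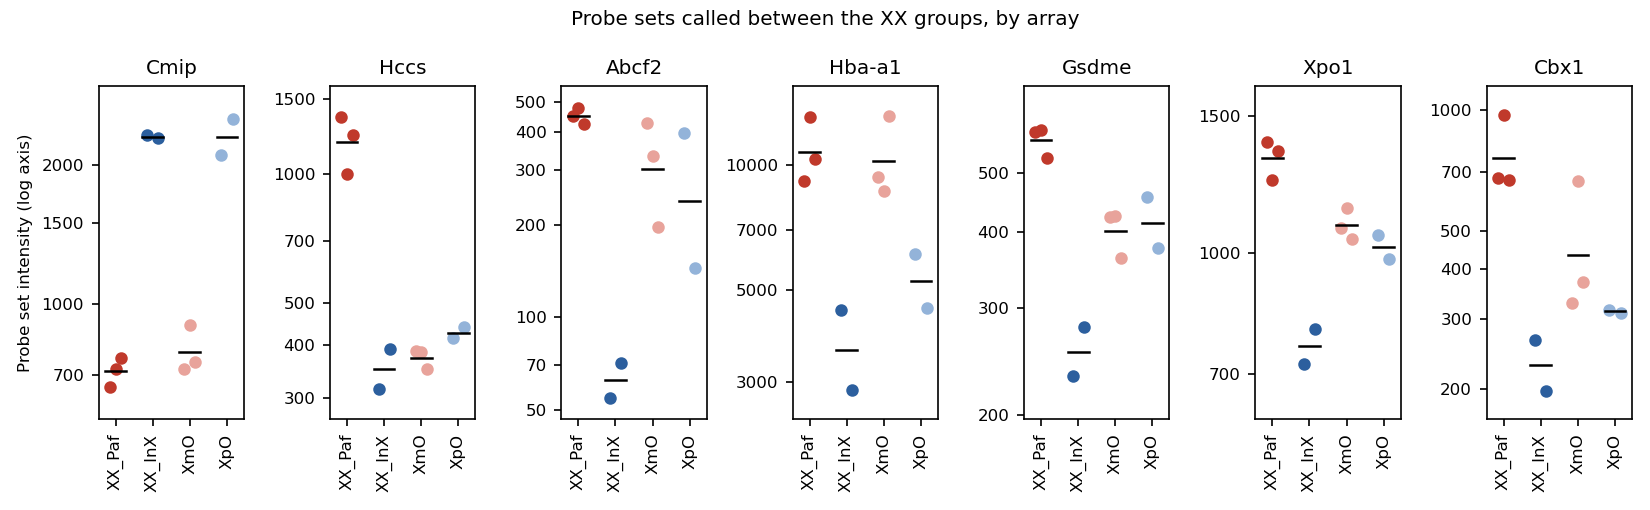
Intensity of the 7 probe sets that passed between the XX groups, on log axes, with 1 point per array and a line at the geometric mean of each group (XX_Paf and XmO 3 arrays, XX_InX and XpO 2 arrays). Cmip separates the crosses in XX and in XO brains, whereas Hccs is high on the 3 XX_Paf arrays alone, at 1001 to 1363 against 316 to 441 elsewhere.

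Hba-a1, the adult alpha globin gene of red cells, was 3-fold higher in XX_Paf. Its promoter is shown because globin probe sets on chromosomes 11 and 7 both differed between the crosses when XX and XO were averaged. The 250 bases before the start of the gene in the RefSeq annotation (GRCm38.p6, chr11:32283422-32283671, plus strand) hold, in capitals, 3 motifs known from globin promoters. These are CACCC, read by Krüppel-like factors, the promoter box CCAAT, and the letters GATAA, read by GATA factors:

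Hba-a1 promoter: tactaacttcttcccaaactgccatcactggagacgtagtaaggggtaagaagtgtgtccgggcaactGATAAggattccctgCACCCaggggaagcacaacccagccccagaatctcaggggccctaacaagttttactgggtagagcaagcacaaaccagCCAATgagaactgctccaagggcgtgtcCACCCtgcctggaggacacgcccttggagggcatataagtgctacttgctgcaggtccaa

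Searched on both strands with no overlap between them, CACCC occurred 2 times, CCAAT 1 time and GATAA 1 time. Of 32851 promoter windows of this length, 52.0% held CACCC, 33.8% CCAAT, 22.6% GATAA and 3.45% all 3. These matches are letters in a window and were not tested for binding.

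The Hba-a1 probe set read 9178, 13077 and 10344 on the XX_Paf arrays and 4475 and 2873 on the XX_InX arrays. In XO brains it read 9381, 8648 and 13158 on the XmO arrays and 6113 and 4541 on the XpO arrays. Both comparisons were without overlap, the Paf cross being higher. The XX difference was 1.58 (SE 0.22, limma adjusted p = 0.0211) and the XO difference 0.96. Hba-a2 is a near-identical copy of Hba-a1 and the probe set may read both. Hbb-b2, an adult beta globin gene on chromosome 7, had 2293, 3652 and 2974 on the XX_Paf arrays and 1393 and 931 on the XX_InX arrays, a difference of 1.36 that did not pass (limma adjusted p = 0.0798), with 1.32 between the XO groups. With XX and XO weighted equally the crosses differed in both genes, by 1.27 for Hba-a1 and 1.34 for Hbb-b2 (limma adjusted p = 0.0103 for each), and by 0.88 for a probe set on chromosome 7 shared by several beta globin genes (adjusted p = 0.0447).

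The rest of the erythroid list did not share that direction. Of its 17 tested genes 8 had a higher and 9 a lower estimate in XX_Paf, with a median of -0.13 against -0.01 over all 6458 tested genes, and 1 (Hba-a1) passed. The summed intensity of the list was 18202 to 25294 in XX_Paf and 12757 to 15770.3 in XX_InX. Without its 4 globin genes the sum of the other 13 was 6563 to 8641 in XX_Paf and 8788 to 9635 in XX_InX, so the order of the groups turned. That turn rested on Tfrc, without which the other 12 summed to 4929 to 5043 in XX_Paf and 4633 to 5473 in XX_InX, with overlap. The transferrin receptor gene Tfrc, named after its values were seen, stood at 2885 ± 1096 against 4158 ± 5.16, and the red-cell heme synthesis gene Alas2, likewise, at 162 ± 24.9 against 150.3 ± 43.8. The heme synthesis genes Alad (0.54) and Cpox (-0.55) had estimates in opposite directions and did not pass. Hbb-bh1, an embryonic globin gene also named after its values were seen, was at 59.5 ± 9.09 against 83.5 ± 9.69, below the background of its array on all 5 XX arrays. The part of trapped blood in the globin difference was not tested.

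The other 4 called genes were higher in XX_Paf and did not overlap between the XX groups, and in XO brains the groups overlapped for each of them but Cbx1. Abcf2 (chromosome 5) encodes a member of the ABC protein family that lacks membrane-spanning parts. It read 452, 478 and 424 on the XX_Paf arrays and 54.9 and 71.1 on the XX_InX arrays. Both XX_InX values were below the background of their array, so the difference is a bound of at least 4.50-fold, taking the background in their place (fitted difference 2.85, SE 0.39, limma adjusted p = 0.0211). The XO arrays ranged from 144 to 427, and the XO difference was 0.34. Gsdme (chromosome 6) encodes gasdermin E, a pore-forming protein of inflammatory cell death, and read 584, 590.3 and 531 on the XX_Paf arrays and 232 and 279 on the XX_InX arrays. It was 2.23-fold higher in XX_Paf (1.16, SE 0.17, limma adjusted p = 0.028), with -0.04 in XO and 0.05 for its other probe set.

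Xpo1 (chromosome 11) encodes the exporter that carries proteins with a nuclear export signal out of the nucleus. Its intensity was 1388, 1242 and 1352 on the XX_Paf arrays and 722 and 801 on the XX_InX arrays, a narrow and separate pair of ranges, with a difference of 0.80 (SE 0.13, limma adjusted p = 0.0399, 1.74-fold). The 5 XO arrays lay between these ranges, at 983 to 1142. Cbx1 (chromosome 11) encodes heterochromatin protein 1 beta, which binds methylated histone H3. It read 676, 975 and 669.6 on the XX_Paf arrays and 266 and 198 on the XX_InX arrays, 3.31-fold higher in XX_Paf (1.73, SE 0.28, limma adjusted p = 0.0475). In XO brains Cbx1 was 312 to 664 and its difference 0.47.

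These calls rested on single arrays to different degrees. When each XX array was left out in turn, Abcf2 and Gsdme passed only without XX_InX 19, with adjusted p up to 0.118 and 0.177 otherwise. Hba-a1 passed only without XX_InX 1, with adjusted p up to 0.112 otherwise. Xpo1 and Cbx1 passed in none of these fits (adjusted p 0.0623 to 0.207 and 0.0919 to 0.208). The number of probe sets called was 2 without any 1 of the XX_Paf arrays, 7 without XX_InX 1 and 17 without XX_InX 19. The tests treat the arrays as separate samples. If arrays share animals or litters, their p-values measure only the spread between these samples.

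Next in order of p were probe sets that did not pass but did not overlap between the XX groups, here given as values with limma adjusted p. Ppfia4, a liprin of the presynaptic active zone, read 664, 611 and 522 on the XX_Paf arrays and 139 and 258 on the XX_InX arrays (1.65, adjusted p = 0.0568), and its XO difference was -0.10. A probe set of the splicing factor Rbm39 read 987, 1226 and 1089.7 on the XX_Paf arrays and 386 and 411 on the XX_InX arrays (1.46, adjusted p = 0.0724), with 1.22 in XO and 0.59 for the brighter Rbm39 probe set in XX. Others with higher estimates were Kank3, an ankyrin-repeat regulator of the cytoskeleton (0.94, adjusted p = 0.0798), the actin-binding girdin gene Ccdc88a (0.78, 0.0808), the splicing-linked cyclin gene Ccnl2 (0.69, 0.085), the chromosome condensation regulator Rcc2 (1.54, 0.102, second probe set 0.29), N-cadherin (Cdh2, 0.57, 0.108) and the Golgi GTPase gene Arfrp1 (0.84, 0.11).

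The lower side held several abundant genes. A beta-actin probe set (Actb) read 1882, 2459 and 2066 on the XX_Paf arrays and 3941 and 4373 on the XX_InX arrays (-0.97, adjusted p = 0.102), with -0.85 in XO and -0.46 for its other probe set. Cofilin (Cfl1), which severs actin filaments, read 9409, 9942 and 10255 on the XX_Paf arrays and 14209.6 and 13332 on the XX_InX arrays (-0.48, adjusted p = 0.135). For both genes the XX_InX values were the higher on every array. Cdkn1a, which encodes the cell cycle inhibitor p21, read 282, 386 and 327 on the XX_Paf arrays and 684 and 581 on the XX_InX arrays (-0.94, adjusted p = 0.14), with -1.24 in XO. Lower estimates without overlap were also those of the phospholipid transfer protein gene Pltp (-0.67), the axon guidance gene Sema6d (-0.92), the succinate dehydrogenase gene Sdhb (-0.57), the kinetochore gene Zwint (-0.51), the fatty acid binding gene Fabp5 (-0.66), the transcription factor gene Gata4 (-1.25), the membrane protein gene Palm (-0.68), the ribosomal gene Rpl41 (-0.51), the 14-3-3 gene Ywhaz (-0.52) and the isoprenoid synthesis gene Fdps (-0.59, with -0.44 for a second bright probe set and -1.65 for a dim one), with adjusted p from 0.121 to 0.147.

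Ptprv, a receptor-type tyrosine phosphatase gene, had opposite directions in XX and in XO brains. It read 20.9, 42.1 and 53.6 on the XX_Paf arrays and 208 and 244 on the XX_InX arrays, and 99.4, 159 and 195 on the XmO arrays and 17.9 and 30.3 on the XpO arrays. XX_Paf and XpO were at or below background on every array, so XX_Paf was at least 3.01-fold lower than XX_InX (fitted difference -2.64, adjusted p = 0.104). The fitted XO difference was 2.64, and the difference between them, -5.28 (SE 0.72), passed (limma adjusted p = 0.0313). With Hccs it was 1 of 2 probe sets of 8695 (0.023%) whose cross difference passed as unequal between XX and XO, and 514 (5.91%) had an unadjusted p under 0.05. Neither call was made in limma with no intensity trend, with array weights, or without XX_InX 1, XmO 2 or XmO 7. For Abcf2, Gsdme, Xpo1, Cbx1 and Hba-a1 the same test did not pass (limma adjusted p 0.391 to 0.832), so their difference was not shown to differ between XX and XO brains.

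Over all probe sets the cross differences in XX and in XO brains were weakly related. Their correlation over the 8695 probe sets, which share the same arrays and are not independent replicates, was r = 0.123 (rho = 0.176), and 57.2% had the same sign. Of the 7 called probe sets 5 had the same sign in XO, and 3 of these (Cmip, Hba-a1 and Cbx1) were also without overlap there. Of the 1199 with an unadjusted p under 0.05 in XX, 802 (66.9%) had the same sign and 224 (18.7%) were also without overlap in XO. Averaged over XX and XO with equal weight, 9 probe sets differed between the crosses (0.104%). Besides Cmip (-1.63, limma adjusted p = 7.74e-06), Hccs (0.78, 0.0304) and the globin probe sets, they were those of Rbm39 (1.34, 0.0103), Cdkn1a (-1.09, 0.0103), Actb (-0.91, 0.0168) and the tubulin gene Tubb4a (-0.51, 0.0447). Leaving out XpO 15 raised this count to 105 and leaving out XpO 18 reduced it to 1 (Cmip).

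**Figure D2:**
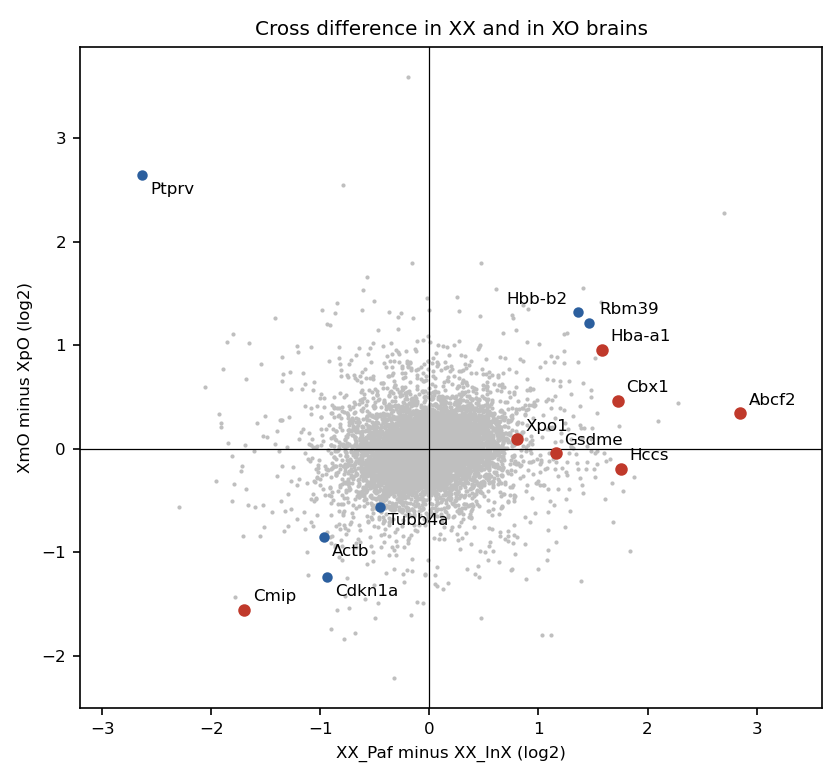
Difference between the crosses in XX brains (x axis, log2 of XX_Paf over XX_InX) against that in XO brains (y axis, log2 of XmO over XpO), 1 point for each of 8695 probe sets. Red points passed in XX, and blue points passed in the average of XX and XO or in the test of the difference between them. Cmip lies at -1.70 and -1.56, Hccs at 1.76 and -0.19, and Ptprv at -2.64 and 2.64.

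By function, genes were described in 60 lists with at least 3 tested genes, each gene by its brightest probe set. Over all 6458 tested genes 3098 estimates were higher and 3360 lower in XX_Paf, with a median of -0.01, and 1133 genes (17.5%) lay above and 1219 (18.9%) below on every array. Of these genes 6 (0.0929%) passed, and 471 (7.29%) had a higher and 398 (6.16%) a lower estimate with an unadjusted p under 0.05. The median was at or above 0.1 in 8 lists, at or below -0.1 in 15 and between in 37. The highest medians were those of genes that escape X inactivation (0.36), choroid plexus (0.33), splicing and RNA binding (0.26), aminoacyl-tRNA synthetases (0.24) and cerebellum (0.23). The lowest were those of Sox factors (-0.38), hindbrain and spinal cord genes (-0.35), hypothalamus and neuropeptides (-0.25) and interferon and antigen presentation (-0.25). A called gene was a member of 5 lists. Below, a gene named without a statement that it passed did not pass over all probe sets.

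**Figure D3:**
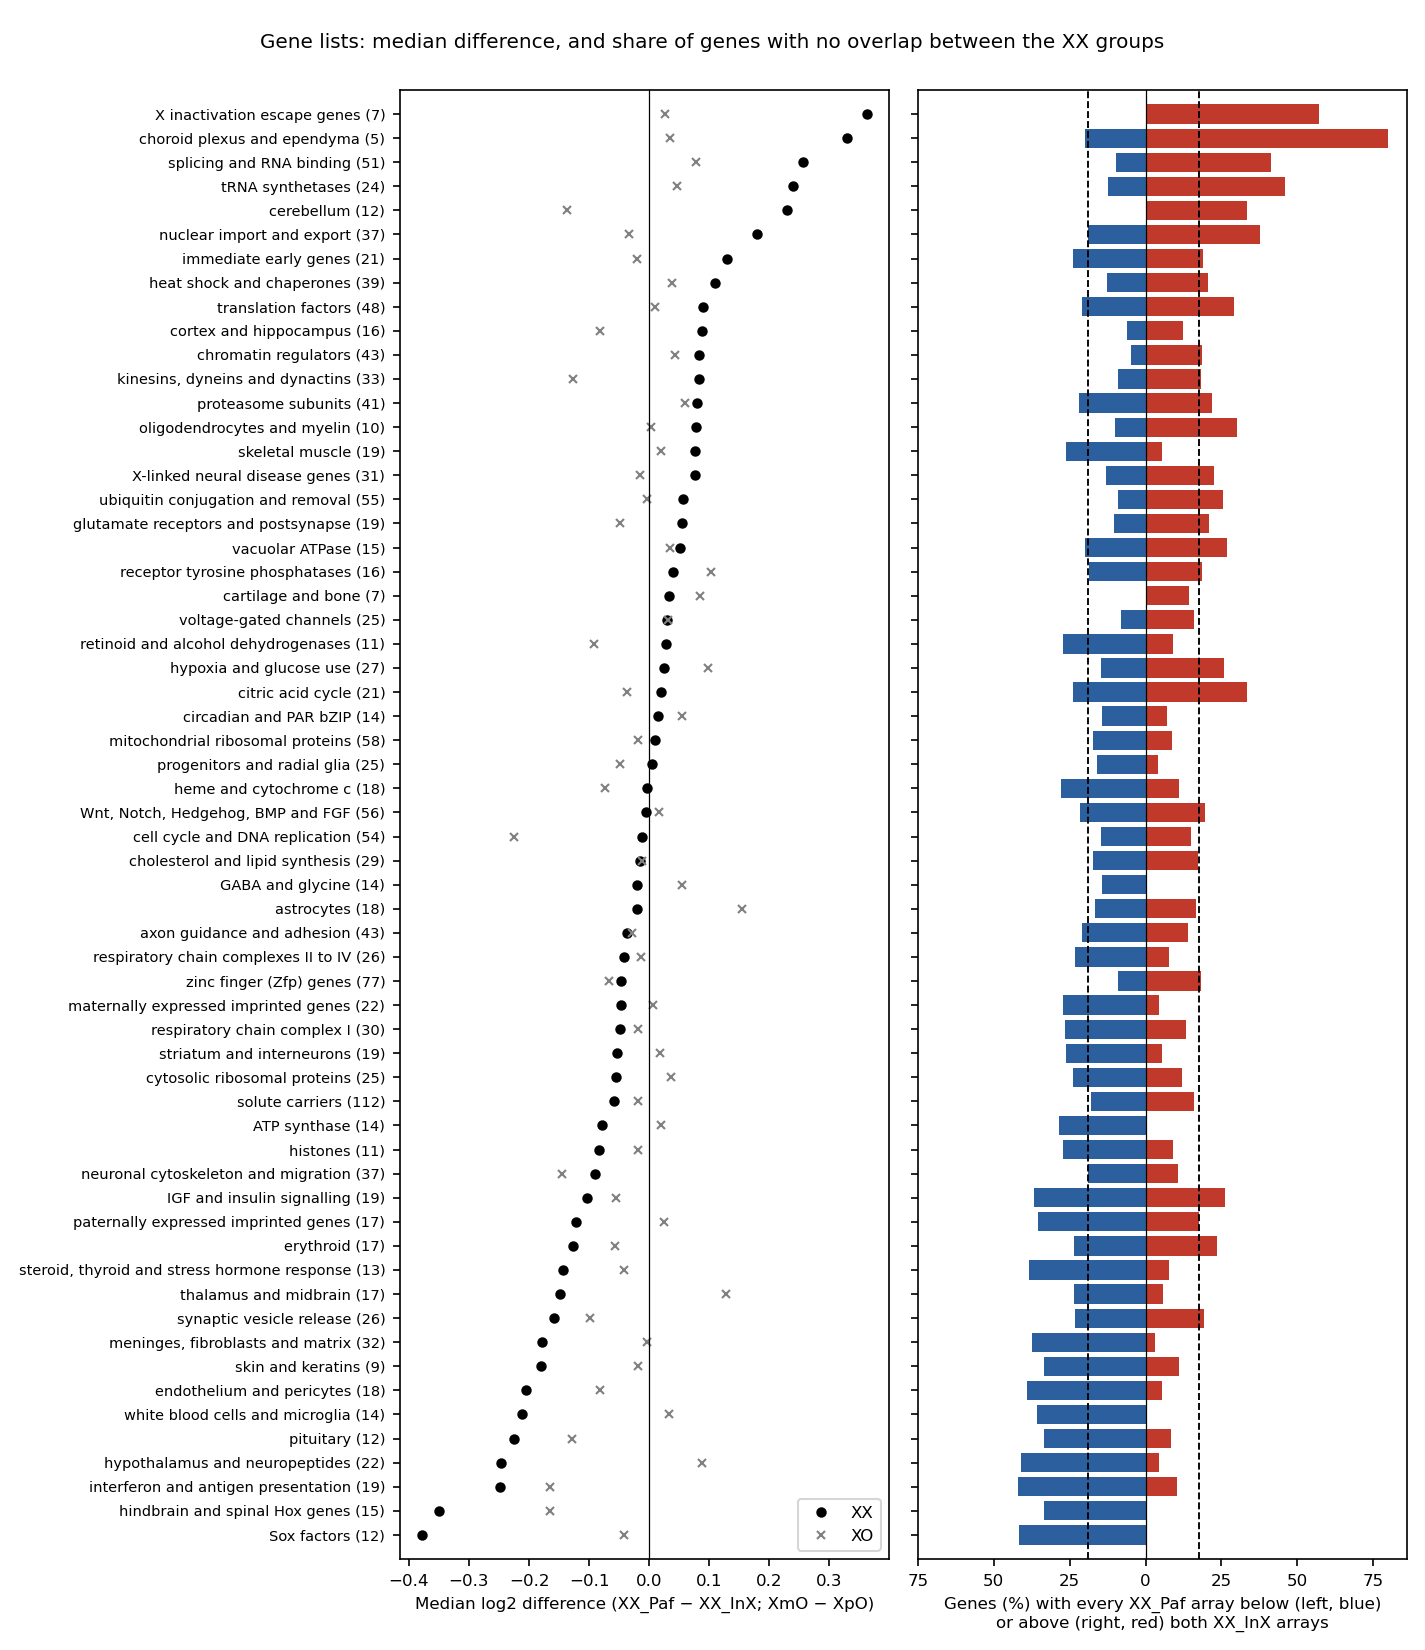
Left, median log2 difference of the tested genes in each of 60 lists (number of genes in brackets) in XX brains (dots) and in XO brains (crosses). Right, share of genes in percent with every XX_Paf array above (red) or below (blue) both XX_InX arrays, with dashed lines at the shares over all tested genes, 17.5% and 18.9%. Splicing genes reach 41.2% above, and meningeal and matrix genes 37.5% below. The row of hindbrain and spinal Hox genes holds 13 Hox genes and 2 other genes.

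Splicing and RNA binding genes mostly had higher estimates in XX_Paf. Of 51 tested genes 42 had a higher estimate in XX_Paf, 21 (41.2%, against 17.5% of all genes) lay above both XX_InX arrays and 5 lay below, and 0 passed in limma over all probe sets, with 12 higher and 2 lower at an unadjusted p under 0.05. The median difference was 0.26 in XX, 0.08 in XO and 0.17 to 0.27 when 1 XX array was left out. Set against each gene's mean over the 10 arrays, the median member stood at 0.07, 0.10 and 0.10 on the XX_Paf arrays and -0.19 and -0.09 on the XX_InX arrays. All 3 XX_Paf arrays were thus on one side and both XX_InX arrays on the other. Rbm39, a coactivator and splicing factor, was at 1472 ± 139 against 978 ± 76.0 (0.59), the neuronal RNA-binding gene Elavl2 at 1476 ± 145 against 925 ± 173 (0.68), the branch point factor Sf3b1 at 1937 ± 183 against 1344 ± 177 (0.53) and Hnrnpu, which packages nascent RNA, at 782 ± 101 against 472 ± 61.5 (0.73, and -0.29 for a dim second probe set). The 5 members below on all arrays, named after their values were seen, were Snrpb (-0.75), Rbm14 (-0.45), Sf3a2 (-0.38, second probe set 0.08), Luc7l (-0.34) and Hnrnpab (-0.32).

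Aminoacyl-tRNA synthetases, which load amino acids onto their tRNAs, had 17 of 24 estimates higher in XX_Paf, 11 above on all arrays (45.8%) and 3 below, a median of 0.24 (0.05 in XO), and 0.16 to 0.24 with 1 XX array left out. Farsa and Farsb, the subunits of the cytosolic phenylalanyl-tRNA synthetase, were at 584 ± 53.9 against 344 ± 188 (0.88) and at a difference of 0.62. The tryptophanyl enzyme gene Wars was at 1246 ± 84.2 against 852 ± 125 (0.55), with 0.20 and 0.03 for its other probe sets. Mitochondrial isoleucyl-tRNA synthetase (Iars2) was lower in estimate (-0.67, 302 ± 42.1 against 479.6 ± 8.34). Translation factors were less one-sided, with 29 of 48 higher and a median of 0.09. On all arrays 14 (29.2%, against 17.5% of all genes) lay above and 10 (20.8%, against 18.9%) below. Of the translation factors the RNA helicase gene Eif4a2 had 0.48 and the start codon factor gene Eif1b -0.33. Cytosolic ribosomal proteins had 10 higher and 15 lower estimates (median -0.06) and mitochondrial ones 30 and 28 (median 0.01), with -0.77 for Mrpl27.

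Nuclear import and export genes included Xpo1, which passed. Of 37 tested, 22 had higher estimates, and the median was 0.18 (-0.03 in XO; 0.07 to 0.19 with 1 XX array left out). On all arrays 14 (37.8%, against 17.5% of all genes) lay above and 7 (18.9%, as over all genes) below. Cse1l, the exporter that returns importin alpha to the cytoplasm, read 854, 787 and 772 on the XX_Paf arrays and 363 and 556 on the XX_InX arrays (0.84). The mRNA exporter Nxf1 had 0.54 and the Ran-binding gene Ranbp10 -1.05, so the list did not go one way. Chromatin regulators, which include Cbx1, had 28 of 43 higher and a median of 0.08. On all arrays 8 (18.6%, near the 17.5% of all genes) lay above and 2 (4.65%, against 18.9%) below. The remodelling ATPase gene Smarca2 had 0.37 and the deacetylase gene Hdac2 0.43. Ubiquitin conjugation and removal had 34 of 55 higher (median 0.06), with 14 (25.5%) above and 5 (9.09%) below on all arrays. It was led by the deubiquitinases Usp14 (0.63) and Usp22 (0.52). The proteasome list, with 23 higher and 18 lower, had a median of 0.08. Its member of smallest p, the assembly chaperone gene Psmg1, was lower in estimate (-0.70), and the activator gene Psme4 higher (0.72).

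**Figure D4:**
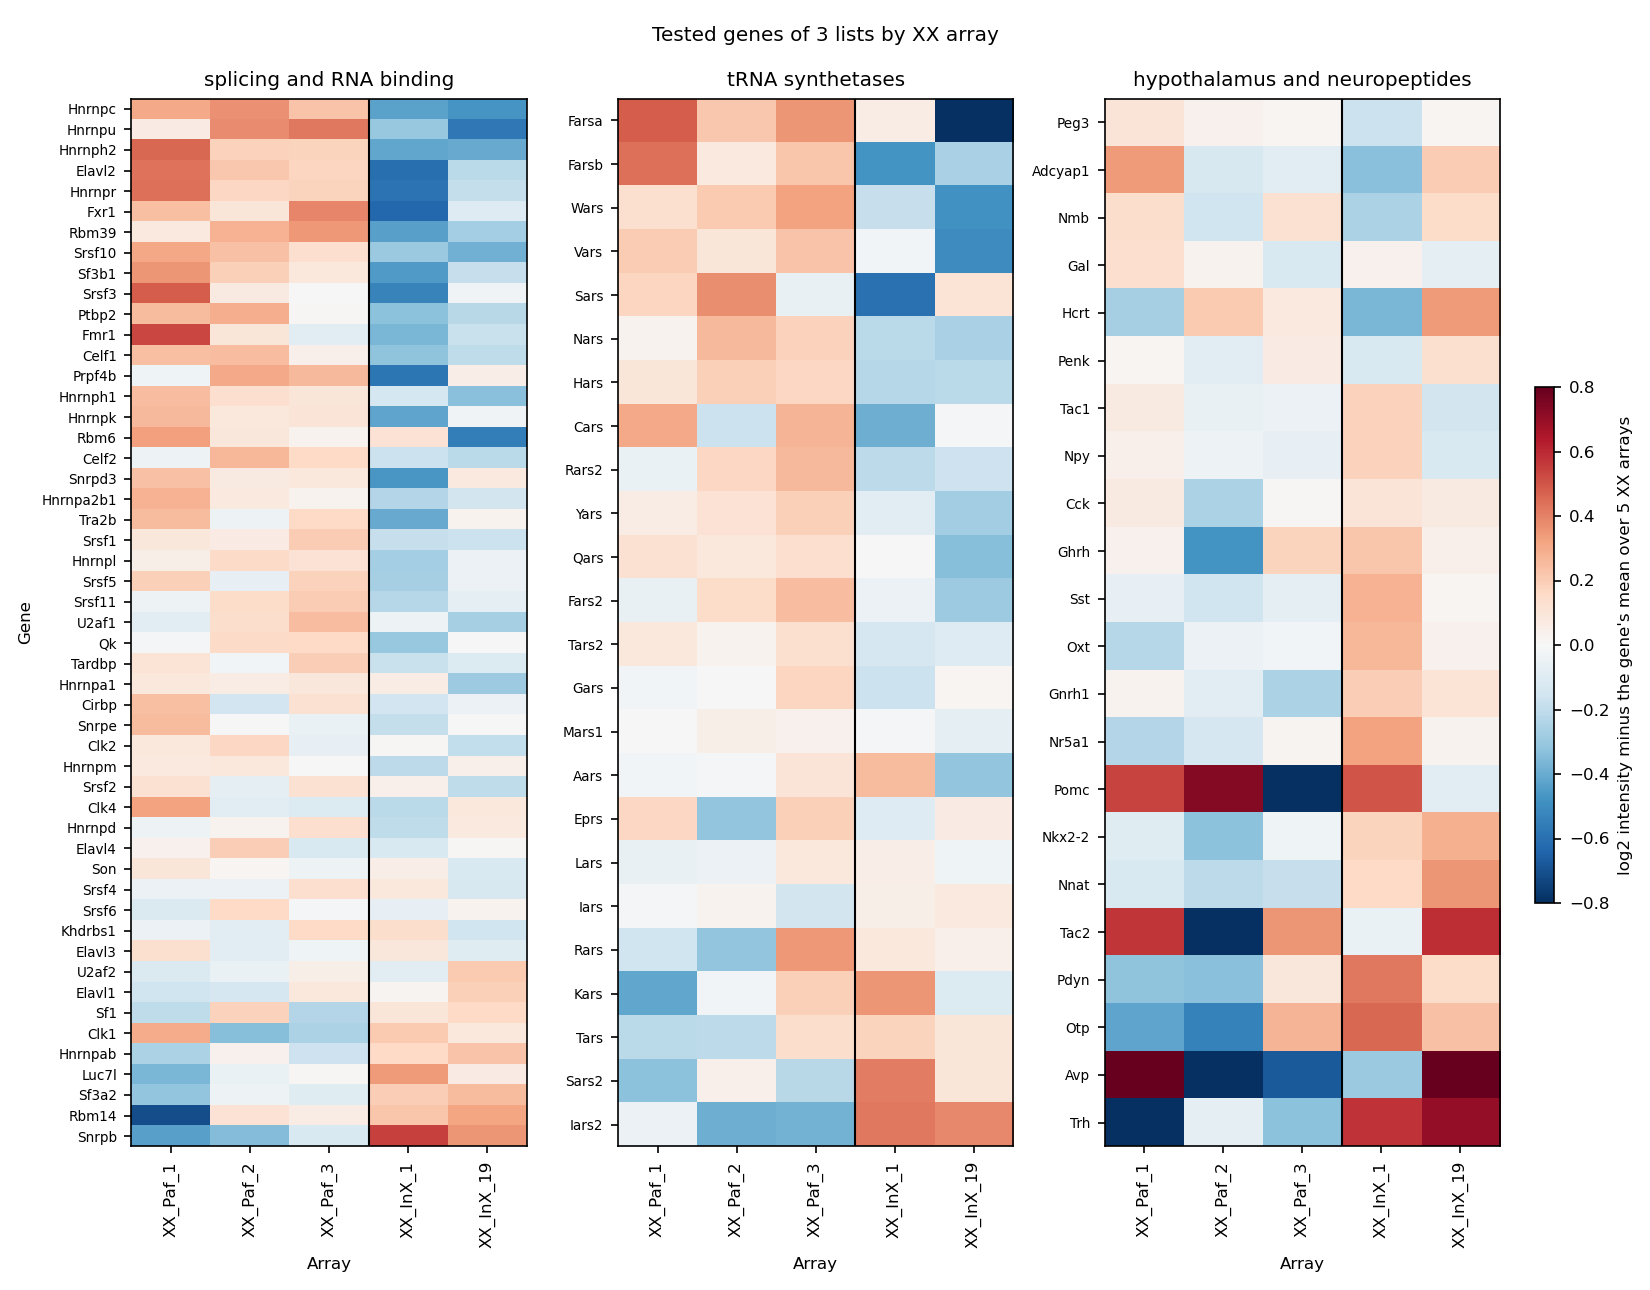
Log2 intensity of each tested gene minus its mean over the 5 XX arrays, for splicing and RNA binding (51 genes), aminoacyl-tRNA synthetases (24) and hypothalamus and neuropeptides (22), with 1 column per array, genes ordered by their difference and colours limited to 0.8 in either direction. In the first pair of lists most rows are red in the 3 XX_Paf columns (42 and 17 higher estimates), and in the last 17 of 22 are higher in XX_InX.

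On the X chromosome, 241 tested probe sets had a median of 0.06 in XX and 0.00 in XO, the highest median of the 20 chromosomes in XX as deposited, next to 0.05 on chromosome 13. Of these, 59 (24.5%) lay above and 37 (15.4%) below on all XX arrays, against 17.6% and 19.5% of all probe sets. The X chromosome was not the extreme in these shares, with 25.9% above on chromosome 18 and 12.9% below on chromosome 13. After quantile normalization the median of chromosome 13 was the highest, just above that of the X chromosome (0.08). Genes known to escape X inactivation, a list that here counts Xist itself, had 5 of 7 higher estimates. On all arrays 4 (57.1%, against 17.5% of all genes) lay above and 0 below. The median was 0.36 in XX and 0.03 in XO, and 0.26 to 0.43 with 1 XX array left out. The histone demethylase gene Kdm6a read 670.0, 688 and 555 on the XX_Paf arrays and 425 and 368 on the XX_InX arrays (0.68, SE 0.16, limma adjusted p = 0.17), and Xist, whose values are given above, 0.81 (SE 0.24, adjusted p = 0.198). The RNA helicase gene Ddx3x was at 2195 ± 285 against 1699 ± 61.8 (0.36), and Utp14a, with 1 of 2 XX_InX arrays below background, at 186 ± 43.1 against 108 ± 22.6. Eif2s3x, a subunit of an initiation factor, differed by less than the spread between arrays (5769.6 ± 261 against 5782 ± 451). The biglycan gene Bgn was lower in estimate, with overlap, at 982 ± 184 against 1163 ± 14.2 (-0.26, and -0.36 in XO).

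X-linked genes of neural disease had 18 higher and 13 lower estimates of 31 (median 0.08). Apart from Hccs they included Fgd1, an activator of the GTPase Cdc42 (0.51), the cholesterol synthesis gene Nsdhl (-0.44) and the monoamine-degrading Maoa (-0.38), none of which passed.

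Imprinted genes were counted by the parent whose allele is active in the tissues where they are imprinted, which need not be every tissue of the brain. Which allele was read in these brains was not measured. Paternally expressed genes had 5 higher and 12 lower estimates of 17. On all arrays 3 (17.6%, near the 17.5% of all genes) lay above and 6 (35.3%, against 18.9%) below. The median was -0.12. That median was 0.02 after cyclic loess normalization, so its sign depended on the scaling. Maternally expressed genes had 10 higher and 12 lower of 22, a share of higher estimates near that over all genes. On all arrays 1 (4.55%) lay above and 6 (27.3%) below, and the median was -0.05 (0.09 without XX_InX 19). Of the paternally expressed genes, Mkrn3, a ring finger gene of the Prader-Willi region, read 486, 414 and 438 on the XX_Paf arrays and 216 and 297 on the XX_InX arrays (0.81), and Nnat, a neuronal membrane protein gene, had a mean of 24108 ± 752 against 32471 ± 3082 (-0.43). Igf2, the fetal growth factor, was at 6692 ± 136 against 9183 ± 209 (-0.46), Ddc, which makes dopamine and serotonin, at 185 ± 13.3 against 326 ± 104 (-0.78) and the amino acid carrier Slc38a4 at 156 ± 35.6 against 254 ± 22.6 (-0.72).

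Of the maternally expressed genes, the noncoding RNA Meg3 was the one above on all arrays, with 11516, 9506 and 8309 on the XX_Paf arrays and 7033 and 4458 on the XX_InX arrays (0.79) and 11442, 9472 and 9655 on the XmO arrays and 7957 and 4657 on the XpO arrays (0.74). Its second probe set, nearly as bright, had 0.36 in XX. The first was thus lower on every array of the In(X) cross than on any of the Paf cross, in XX and in XO. Gnas, which encodes the stimulatory G protein alpha subunit, was at 19901 ± 1011 against 25746 ± 751 (-0.37), and its dim probe sets had 0.33 and 0.15. Nap1l4, a nucleosome assembly gene, had -0.42 and Phlda2, a growth-restraining gene with 2 of 3 XX_Paf arrays below background, -0.86. None of these imprinted genes passed.

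Among brain regions, hypothalamic and neuropeptide genes were lower in estimate in XX_Paf. Of 22 tested, 17 had lower estimates, 9 (40.9%, against 18.9% of all genes) lay below and 1 above on all arrays, 0 passed in limma, and 2 had an unadjusted p under 0.05. The median was -0.25 in XX, -0.25 to -0.14 with 1 XX array left out, and 0.09 in XO. Summed intensities of the list were 38930.2 to 41375 in XX_Paf and 48232 to 51939 in XX_InX, and 42527 to 48282 in XmO and 39832 to 50881 in XpO. Most of the XX gap in these sums was that of Nnat, the brightest member, without which they were 15435 to 16428 in XX_Paf and 17289 to 17941 in XX_InX, still with no overlap. Trh, the thyrotropin-releasing hormone gene, read 144, 249 and 209.7 on the XX_Paf arrays and 393 and 430.0 on the XX_InX arrays (-1.07), against 0.57 in XO. The hypothalamic homeobox gene Nkx2-2 had -0.39 and Nr5a1, the nuclear receptor gene of the ventromedial hypothalamus, -0.29, with -0.90 and 0.29 for its dimmer probe sets. Oxytocin (Oxt, 614 ± 47.4 against 730.5 ± 81.4) and somatostatin (Sst, 2678 ± 94.4 against 3185 ± 409), named after their values were seen, also lay below on all arrays. Pituitary genes had 10 of 12 lower (median -0.23; -0.30 to -0.07 with 1 XX array left out), among them the luteinizing hormone beta gene Lhb (-0.44), and prolactin (Prl), named after its values were seen, was at 156 ± 26.1 against 150.1 ± 53.

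Cerebellar genes mostly had higher estimates, with 11 of 12 higher and a median of 0.23 (-0.14 in XO; 0.13 to 0.35 with 1 XX array left out). On all arrays 4 (33.3%, against 17.5% of all genes) lay above and 0 below. Summed intensities of the list overlapped, at 10732 to 13758 in XX_Paf and 9739.8 to 11480.3 in XX_InX. Rora, the nuclear receptor gene of Purkinje cells, was at 385 ± 13.8 against 254 ± 92.3 (0.65), the granule cell factor Neurod1 at 409.7 ± 50.6 against 292 ± 60.2 (0.50), the Hedgehog receptor gene Ptch1 at 524 ± 112 against 389 ± 45.4 (0.41, and -0.25 for its dimmer probe set) and Zic1 at 0.23. Of the 5 tested choroid plexus and ependyma genes the transthyretin gene Ttr (0.43), Igfbp2 (0.18), Msx1 (0.34) and, named after its values were seen, Folr1 (0.33) lay above, and the ciliary regulator Foxj1 (-0.54) below on all arrays. Of 15 hindbrain and spinal cord genes 11 had lower estimates (median -0.35; -0.34 to -0.16 with 1 XX array left out; -0.16 in XO). They are 13 Hox genes, which pattern the body axis (9 lower, 5 of them below on all arrays, median -0.26), the serotonin transporter gene Slc6a4 (-0.38) and, named after its values were seen, Egr2 (-0.52). The 5 below on all arrays were 33.3% of the list, against 18.9% of all genes. Hoxc8 had -0.96, and no fold is given for Hoxc5, below background on 1 XX_Paf and both XX_InX arrays. Cortex and hippocampus (median 0.09), striatum and interneurons (-0.05) and thalamus and midbrain (-0.15, and 0.02 after quantile normalization) had smaller or less stable medians. Whether the share of each region in the dissected brains moved with these values was not tested.

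Lists of meningeal, vessel and white blood cell genes had medians below that of all genes. Meninges, fibroblasts and matrix had 24 of 32 lower, 12 (37.5%) below and 1 above on all arrays, and a median of -0.18 (-0.00 in XO; -0.23 to -0.14 with 1 XX array left out). Their summed intensity was 28516 to 30262 in XX_Paf and 36867 to 37127 in XX_InX, with no overlap, and 27821 to 31646 in XmO and 27899.7 to 34938 in XpO, with overlap. The prostaglandin D synthase gene Ptgds, marking the leptomeninges, read 6000.3, 5032 and 5347 on the XX_Paf arrays and 8437 and 8170.0 on the XX_InX arrays (-0.61), and the collagen gene Col1a2 1338, 1664 and 1401 on the XX_Paf arrays and 2332 and 2027 on the XX_InX arrays (-0.57, second probe set -0.20). The perlecan gene Hspg2 was the 1 member above on all arrays (0.89, and -1.26 in XO). Endothelium and pericytes had 12 of 18 lower, 7 (38.9%, against 18.9% of all genes) below and 1 above on all arrays. Their median was -0.20 (-0.34 to -0.14 with 1 XX array left out) and -0.14 after quantile normalization. Endoglin (Eng) was at -0.45 and Sox18 at 296 ± 42.1 against 409.9 ± 2.05. The 6 higher estimates, named here after their values were seen, included Cldn5 (0.09), Cdh5 (0.15), Kdr (0.14) and Acta2 (0.62), the 1 above on all arrays. White blood cells and microglia had 11 of 14 lower, 5 (35.7%, against 18.9% of all genes) below and 0 above on all arrays (median -0.21; -0.27 to -0.18). The 3 higher estimates, named after their values were seen, were Csf1r (0.00), C1qa (0.02) and the dim Fcgr3 (0.31, means 60.7 and 64.7). Ctss (-0.05) and C1qc (-0.14), named likewise, overlapped between the groups. Coronin 1A (Coro1a), an actin regulator of leukocytes, was at 523 ± 29.8 against 755 ± 25.5 (-0.53) and the microglial receptor gene Cx3cr1 at 364 ± 31.3 against 447 ± 21.8 (-0.30).

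Interferon and antigen presentation genes had 16 of 19 lower, with 8 (42.1%, against 18.9% of all genes) below and 2 above on all arrays. Their median was -0.25 in XX (-0.33 to -0.19 with 1 XX array left out) and -0.17 in XO. The invariant chain gene Cd74 of class II presentation read 164, 233 and 169 on the XX_Paf arrays and 356 and 302 on the XX_InX arrays (-0.82), and the class I gene H2-K1 389, 332 and 333 on the XX_Paf arrays and 537 and 459.6 on the XX_InX arrays (-0.50, second probe set -0.05). Ifitm3, an interferon-induced membrane protein gene, was at 280.3 ± 44.6 against 399 ± 7.28 (-0.52), with -0.99 in XO, and Ifitm2 at -0.75. The 2 members above on all arrays, named after their values were seen, were the class I light chain gene B2m (0.32) and Isg15 (at least 1.16-fold higher, with both XX_InX arrays below background). Skeletal muscle genes, which would mark tissue taken along with the brain, had 10 higher and 9 lower. The skeletal actin gene Acta1 read 324, 2448 and 307 on the XX_Paf arrays and 179.6 and 306 on the XX_InX arrays, high on XX_Paf 2 alone. Skin and keratin genes had a median of -0.18 and cartilage and bone genes 0.03. The part of attached tissue in any gene list was not tested.

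Neuronal lists held estimates of both directions. Over all genes 18.9% lay below and 17.5% above on all arrays. The neuronal cytoskeleton and migration list had 27 of 37 lower (median -0.09, and -0.15 in XO), 7 (18.9%) below and 4 (10.8%) above on all arrays. In it Tubb4a was at 2961 ± 249 against 4057 ± 86.2 (-0.46) and Tubb5, another tubulin, at 26361 ± 1381 against 30836 ± 1121 (-0.23), while the microtubule-binding tau gene Mapt read 18649, 18202 and 13566 on the XX_Paf arrays and 12184 and 11515 on the XX_InX arrays (0.49), with 0.48 and 0.00 for its other bright probe sets. Kinesins, dyneins and dynactins, the motors on microtubules, had 22 of 33 higher (median 0.08, and -0.13 in XO), with Dctn2 at 0.51 and Dync1i2 at 0.44. Synaptic vesicle release had 17 of 26 lower (median -0.16), with 5 (19.2%) above and 6 (23.1%) below on all arrays, shares near those over all genes. Synaptotagmin 4 (Syt4, 716 ± 52.6 against 444 ± 22.9) and the SNARE-recycling gene Napa (0.56) were above, and complexin 2 (Cplx2, 826 ± 101 against 1233 ± 152) and synaptotagmin 3 (Syt3, -0.62) below.

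Voltage-gated channels (median 0.03) were led by the potassium channel gene Kcnd2, at 739 ± 139 against 407 ± 40.7 (0.85, second probe set 0.35), and glutamate receptors and postsynapse (median 0.05) by the AMPA receptor gene Gria2, whose probe sets had 0.34, 0.51 and 0.95. GABA and glycine genes (median -0.02) included the transporter gene Slc6a13 (-0.70). Axon guidance and adhesion had 21 higher and 22 lower of 43, with Cdh2 at 2549 ± 38.5 against 1716 ± 25.5, the adhesion gene Chl1 at 2150.4 ± 113 against 1255 ± 73.3 (0.78) and the ephrin gene Efnb3 at 2365 ± 223 against 3212 ± 116 (-0.45). Astrocyte genes had 8 higher and 10 lower estimates. On all arrays 3 (16.7%) lay above and 3 (16.7%) below, near the 17.5% and 18.9% of all genes. Ndrg2, a stress-responsive gene of astrocytes, had 0.52 and the protease inhibitor gene Timp3 0.30, both above on all arrays, and the lower estimates included Gfap, the intermediate filament gene of astrocytes, at 336 ± 81.7 against 526 ± 97.9, and the metallothionein gene Mt3 at 2532 ± 335 against 3420.4 ± 446. Progenitors and radial glia (median 0.01) and oligodendrocytes and myelin (0.08) lay near the median of all genes, the myelin-associated gene Gpm6b (0.78, 1748 ± 198 against 1018 ± 14.7) having the smallest p of the latter. Sox factors, transcription factors of neural and vessel development, had 9 of 12 lower and 5 (41.7%, against 18.9% of all genes) below on all arrays. Their median was -0.38 (-0.37 to -0.23 with 1 XX array left out), with Sox13 at 585 ± 62.3 against 772 ± 80.4 (-0.40).

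Of the metabolic lists, ATP synthase had 10 of 14 lower and 4 (28.6%, against 18.9% of all genes) below on all arrays (median -0.08). Complex I had 16 of 30 lower, 4 above and 8 (26.7%) below on all arrays (median -0.05). In complexes II to IV 15 of 26 were lower, 2 above and 6 (23.1%) below on all arrays (median -0.04). The complex I gene Ndufb2 was at 4261 ± 322 against 5589 ± 404 (-0.39), and Sdhb of complex II at 2198 ± 263 against 3254 ± 91.6. Above on all arrays were Ndufaf4 of the complex I list (0.59) and Uqcrc1 of complexes II to IV, at 3560 ± 209 against 2747 ± 35.4 (0.37). Hypoxia and glucose use had a median of 0.02, with 7 of 27 (25.9%, against 17.5% of all genes) above and 4 below on all arrays. Those above included the phosphofructokinase genes Pfkp (1556 ± 256 against 966 ± 96.7, 0.68) and Pfkm (1872 ± 302 against 1250.3 ± 239.8, 0.58), which set the pace of glycolysis, and lactate dehydrogenase B (Ldhb, 0.59). Cholesterol and lipid synthesis had 14 higher and 15 lower (median -0.01). On all arrays 5 (17.2%) lay above and 5 (17.2%) below, near the 17.5% and 18.9% of all genes. The cholesterol exporter gene Abca1 had 0.52, with Fdps at 4984 ± 756 against 7445 ± 623, Nsdhl at 1175 ± 190.4 against 1587 ± 137 and squalene epoxidase (Sqle) at 3258 ± 65 against 3856 ± 10.4 lower in estimate. Heat shock genes and chaperones had 24 of 39 higher (median 0.11; 0.04 to 0.14 with 1 XX array left out), with Pdia3, an enzyme of disulfide formation, at 0.57 and the Hsp40 gene Dnajb1 at -0.58.

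Signalling lists were mixed. Immediate early genes had 13 of 21 higher (median 0.13), yet 4 lay above and 5 below on all arrays. Those above included the orphan receptor gene Nr4a1 at 237 ± 19.8 against 102 ± 3.39 (1.22, 1 XX_InX array below background). Those below included Ier3 (-0.60) and the bright Jund (-0.27, means 9158.9 in XX_Paf and 11026.9 in XX_InX). The steroid, thyroid and stress hormone list had 10 of 13 lower (median -0.14), yet Sgk1, a kinase gene induced by glucocorticoid, was above on all arrays (834 ± 119 against 563 ± 94.5, 0.57). Of 19 IGF and insulin signalling genes (median -0.10), 5 (26.3%) lay above and 7 (36.8%) below on all arrays. The kinase gene Akt2 had 0.57 and the insulin receptor substrate gene Irs2 -0.55. The list of Wnt, Notch, Hedgehog, BMP and FGF genes had 28 higher and 28 lower, with Fgf13 at 283 ± 61.8 against 575 ± 84.2 (-1.04) and the BMP mediator gene Smad4 at 1282 ± 52.3 against 815 ± 65.3 (0.65). Cell cycle and DNA replication had 26 higher and 28 lower of 54 (median -0.01 in XX and -0.22 in XO), with Cdkn1a below and the replication helicase gene Mcm7 above (673 ± 47.4 against 470.4 ± 3.04, 0.51) on all arrays.

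The XX difference also varied with intensity. When probe sets were ranked by mean intensity and cut into deciles, the dimmest decile had a median of -0.20, and the medians of brighter deciles reached 0.00 in the seventh decile and 0.02 in the eighth and ninth. In the dimmest decile 10.1% of probe sets lay above and 23.4% below on all arrays, against 24.1% and 16.7% in the eighth. The same medians between the XO groups stayed within -0.03 to 0.03, and after quantile normalization the XX medians did so within -0.06 to 0.02. Taken relative to the median of each gene's own decile, the list medians were 0.25 for splicing, 0.24 for tRNA synthetases, 0.19 for nuclear transport, -0.22 for hypothalamus, -0.17 for meninges and matrix, -0.23 for interferon and -0.33 for Sox factors. They were -0.12 for endothelium and pericytes, -0.18 for white blood cells and microglia, -0.18 for pituitary and -0.30 for hindbrain and spinal cord genes. For thalamus and midbrain the median turned from -0.15 to 0.02, and for the paternally expressed imprinted genes it was 0.00. The 7 calls were all made again after quantile normalization.

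**Figure D5:**
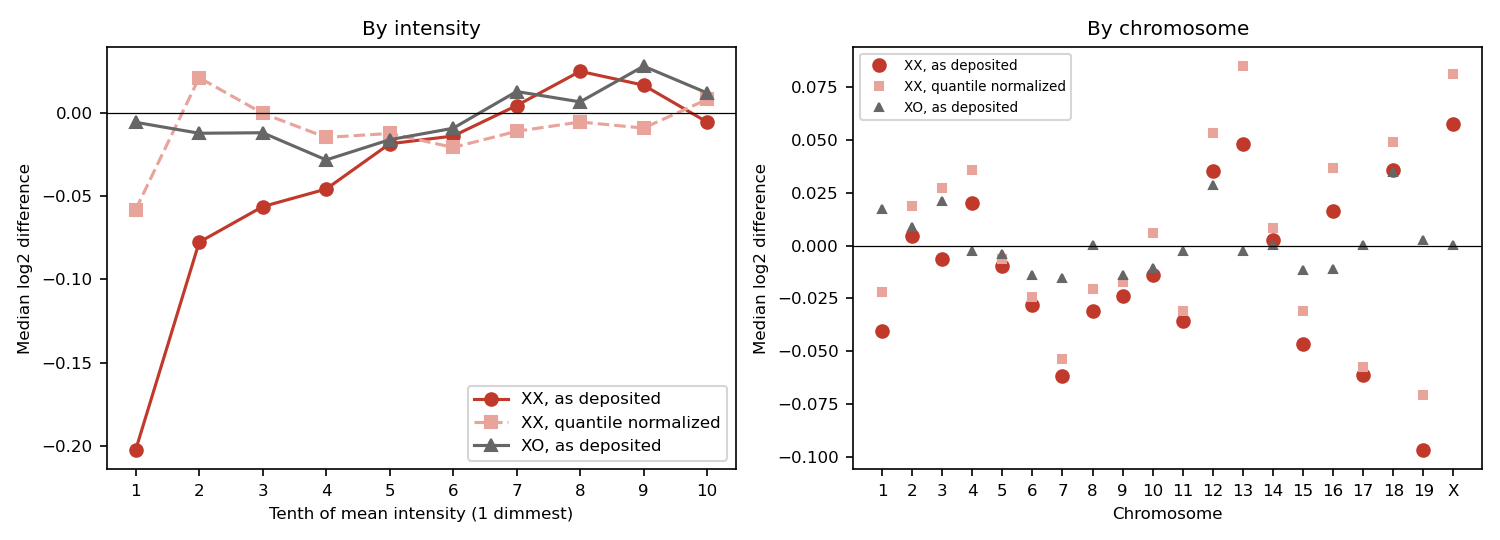
Median log2 difference between the crosses by decile of mean intensity (left, 1 the dimmest) and by chromosome (right), in XX brains as deposited (red circles) and after quantile normalization (pale squares), and in XO brains (grey triangles). The dimmest decile lies at -0.20 in XX as deposited, and the X chromosome has the highest XX median of 20 chromosomes as deposited, 0.06, and is next to chromosome 13 after quantile normalization.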

How the data were processed

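RNA of newborn XX and XO brains was measured on 10 arrays. The deposited values are linear intensities, 1 per probe set and array, which the authors had scaled to a common trimmed mean (2% removed at each end). For the scanner software and the probe summary nothing was given in the sources used here. Of 12488 probe sets, 66 controls were left out. Of the other 12422, 10833 have 1 gene symbol in the platform annotation, 396 several and 1193 none.

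Intensities under the 10th percentile (15) were set to it and log2 was taken. The 8695 probe sets with a mean at or above the 30th percentile were fitted in limma 3.58.1 (R 4.3.3), with a mean for each of 4 groups and an intensity trend in eBayes (6 residual degrees of freedom). All p-values are two-sided, and adjusted ones follow Benjamini-Hochberg over all probe sets tested. An exact permutation test of 3 against 2 arrays cannot go below 0.1. A gene in a list is read by its brightest probe set. The fit was tested on simulated data with independent normal noise and changes of known size. The simulation held no shifts by array or intensity like those described above, so it cannot speak to them. Precision is limited by the number of arrays.

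Named genes are every called probe set, up to 15 in each direction with the smallest p among those without overlap, and up to 4 by smallest p in each list. The comparison and the lists were chosen with earlier results of these data known. Alternatives were other normalizations, filters and fits, and leaving out each array.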

Additional observations from a re-analysis of the deposited data

Results flagged for a closer look

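For 2 probe sets the cross difference in XX brains differed from that in XO brains in a limma test of the difference itself. For the X-linked gene Hccs the XX difference exceeded the XO difference by 1.95 (log2, adjusted p = 0.0219). For the phosphatase gene Ptprv the XX difference was lower than the XO difference by a fitted value of -5.28 (adjusted p = 0.0313). The XX_Paf and XpO arrays are at or below background for Ptprv, so this value depends on the floor and is no measured fold. Neither passed in limma with no intensity trend, with array weights, or without XX_InX 1, XmO 2 or XmO 7. The groups hold 2 or 3 arrays each, too few to test for a single stray array.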

How the results depend on the processing

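The count of 7 probe sets between the XX groups was 17 with no filter (4 of the 7 among them), 2 with no intensity trend, 11 with array weights and 35 with only the 5 XX arrays in the fit. It was 2 to 17 with 1 XX array left out. It stayed at 6 to 10 under quantile normalization, median scaling, an offset of 16, a 50th percentile filter and cyclic loess, which was added after seeing the data. Between the XO groups the count of 1 was 3 with no filter and 1 to 7 with 1 array left out. The count of 9 for the average of XX and XO was 22 with a 50th percentile filter, 1 with no intensity trend and 1 to 105 with 1 array left out. The count of 2 for the difference between XX and XO was 5 with no filter, 1 with a 50th percentile filter, 0 with no intensity trend or with array weights, and 0 to 4 with 1 array left out (0 without XX_InX 1, XmO 2 or XmO 7), all in limma, where 514 probe sets had an unadjusted p under 0.05 in the fit reported. The causes were not tested.

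Over 242 named probe sets, 3300 of 3355 alternatives kept the direction and side of the threshold, 31 lost the call, 20 gained one and 4 changed sign. With 1 array left out, Col9a2 ranged from -0.27 to 0.025, Col11a1 from -0.037 to 0.36 (-0.014 without XX_Paf 2) and Csnk1e from -0.091 to 0.31. List medians changed sign in 74 of 720 alternatives, in 28 of 60 lists. Other scalings moved the median of all probe sets to between -0.01 and 0.01, from -0.02. No paired analysis was possible because XX_Paf (1, 2, 3) and XX_InX (1, 19) share only 1 number and XmO and XpO share none.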
